A study of Mus musculus with 4 samples.

Results

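The cells described here were tumour macrophages that carried transcripts of Rsad2, Ifit2 and Cxcl10 together. A cell barcode was kept when it had at least 1000 unique molecular identifiers (UMIs, each standing for 1 captured RNA molecule), at least 250 genes, at most 20% mitochondrial UMIs and at least 1 Malat1 UMI. A kept barcode passed the macrophage gate with at least 1 Lyz2 UMI, at least 1 UMI of Csf1r, C1qa, C1qb, C1qc or Ccr2, at most 2 UMIs of Krt8, Krt18 and Krt19 together, and no Cd3e UMI. The cells were chosen by their measured UMIs of these genes: gated cells with at least 1 UMI of each of Rsad2, Ifit2 and Cxcl10 are called triple-positive, and all other gated cells are called other macrophages. The triple-positive cells numbered 81, which was 2.55% of 3174 gated cells among 10535 kept barcodes of 16890.

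The study grew tumours of KPC46, a mouse pancreatic cancer organoid line, in B6/129 F1J mice, and profiled whole dissociated tumours by 10x 3' v3.1 single-cell RNA sequencing. TAK-981 (subasumstat), an inhibitor of the SUMO-activating enzyme, was given to 2 mice, and vehicle (Cremophor) was given to 2 mice. Each library came from 1 mouse, and all tumours came from the 1 organoid line. The comparison between treatments asks how blocking SUMOylation alters the cells of the tumour.

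Interferons bind receptors that signal through JAK kinases to transcription factors, which switch on interferon-stimulated genes. Macrophages and monocytes in tumours can carry such a programme, and Cxcl10 encodes a chemokine that attracts T cells bearing Cxcr3. Rsad2 encodes viperin, an antiviral enzyme that modifies CTP, and Ifit2 encodes an antiviral protein that binds RNA.

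The 3 defining genes are Rsad2 (ENSMUSG00000020641, chr12:26442746-26456452, minus strand), Ifit2 (ENSMUSG00000045932, chr19:34550694-34576419, plus strand) and Cxcl10 (ENSMUSG00000034855, chr5:92346638-92348889, minus strand), with gene bodies in GRCm38 (mm10) from GENCODE vM21. To show how matches to an interferon response motif look in this set, the 250 bases before the gene start are given for 3 of the genes with the largest rise described below and for 2 defining genes, all picked because they hold a match. Sequences are from RefSeq on GRCm38.p6, 5' to 3' on the strand of the gene, and capitals mark matches to GAAA, any pair of bases (NN) and GAAA again, or to the reverse complement (TTTC, NN, TTTC), the core of the interferon-stimulated response element, sought on both strands with overlapping matches joined. The windows lie at chr19:34640639-34640888 (Ifit1, plus), chr19:34583279-34583528 (Ifit3, plus), chr4:156200819-156201068 (Isg15, minus), chr12:26456453-26456702 (Rsad2, minus) and chr5:92348890-92349139 (Cxcl10, minus).
Ifit1: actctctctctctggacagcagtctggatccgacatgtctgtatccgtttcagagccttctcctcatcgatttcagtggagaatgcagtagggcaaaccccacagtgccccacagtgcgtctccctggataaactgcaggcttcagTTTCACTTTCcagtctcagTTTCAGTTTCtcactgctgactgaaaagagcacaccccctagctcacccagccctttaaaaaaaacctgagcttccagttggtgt
Ifit3: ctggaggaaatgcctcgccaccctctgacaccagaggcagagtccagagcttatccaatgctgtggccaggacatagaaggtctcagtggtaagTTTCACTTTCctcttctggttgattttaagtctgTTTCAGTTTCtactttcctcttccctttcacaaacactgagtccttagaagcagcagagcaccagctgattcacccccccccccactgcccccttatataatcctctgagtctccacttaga
Isg15: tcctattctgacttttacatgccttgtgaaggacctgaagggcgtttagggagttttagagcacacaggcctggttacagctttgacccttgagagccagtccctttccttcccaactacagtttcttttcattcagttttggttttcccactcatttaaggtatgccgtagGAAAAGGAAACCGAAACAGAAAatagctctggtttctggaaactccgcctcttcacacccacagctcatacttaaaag
Rsad2: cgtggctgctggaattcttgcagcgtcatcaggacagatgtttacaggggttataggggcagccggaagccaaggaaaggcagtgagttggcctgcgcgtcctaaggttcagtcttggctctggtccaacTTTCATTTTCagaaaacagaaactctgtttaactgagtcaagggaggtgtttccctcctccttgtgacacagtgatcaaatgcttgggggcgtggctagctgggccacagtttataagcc
Cxcl10: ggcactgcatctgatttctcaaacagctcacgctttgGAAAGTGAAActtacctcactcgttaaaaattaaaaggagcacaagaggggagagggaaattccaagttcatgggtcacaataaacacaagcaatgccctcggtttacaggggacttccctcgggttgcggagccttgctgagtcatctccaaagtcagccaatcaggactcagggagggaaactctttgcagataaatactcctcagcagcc
The 2 Ifit2 windows in that table held no match, and neither did those of Cmpk2, Isg20, Oasl1 and Herc6, which are 4 of the 12 genes with the largest rise. The motif was present in 2.98% of all 32851 windows of that length, in 17.0% of the genes higher in triple-positive cells (53 of 311 with a window), in 6.74% of those lower (12 of 178) and in 3.65% of all genes tested with a window (301 of 8256). It was present in 43.2% of the type I interferon targets (19 of 44), a list close to the rule, and in 9.77% of the higher genes outside the type I and interferon gamma lists (25 of 256). A match is a description of letters, not a measured binding site.

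Cells of the TAK-981 libraries held more UMIs each, which is called depth here. Total UMIs were 26376608 and 63898758 in the TAK-981 libraries and 24411656 and 29041348 in the vehicle libraries. Median UMIs per triple-positive cell were 8598 and 7779 in TAK-981 and 2369.5 and 3022 in vehicle, so depth and treatment cannot be told apart in cells at full depth. Other macrophages had medians of 8736.5 and 7956.5 UMIs in TAK-981 and 3310 and 3353 in vehicle. Kept barcodes shared between libraries numbered 1 to 4 per pair, and no triple-positive barcode was shared.

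Triple-positive cells numbered 14 and 48 in the TAK-981 tumours, and 16 and 3 in the vehicle tumours. They made up 2.62% (exact 95% interval 1.44 to 4.36) and 8.19% (6.1 to 10.7) of gated cells in TAK-981, and 1.19% (0.684 to 1.93) and 0.420% (0.0867 to 1.22) in vehicle. These Clopper-Pearson intervals cover counting error only. At full depth both TAK-981 tumours lay above both vehicle tumours. The mean share was 5.41% ± 3.94 in TAK-981 and 0.807% ± 0.547 in vehicle (SD, n = 2 each), a difference of 4.60 percentage points. An exact two-sided permutation test gave p = 0.3333, the smallest p that 2 mice against 2 allow. The difference was 1.81 points without TAK-981 replicate 2, which held 48 of the 81 cells.

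The difference in percentage points shrank when every cell was thinned at random to the same number of UMIs. Counts and shares below are from the first of 10 random thinnings unless stated otherwise. At 3000 UMIs the triple-positive cells numbered 6 of 462 gated cells (1.30%) and 38 of 559 (6.80%) in TAK-981, against 6 of 740 (0.811%) and 2 of 437 (0.458%) in vehicle. Thinning to 3000 UMIs left out 211 and 274 shallower barcodes in TAK-981 and 1273 and 739 in vehicle. At 1000 UMIs, which left out none, they numbered 1 of 523 (0.191%) and 17 of 571 (2.98%) in TAK-981, against 7 of 1175 (0.596%) and 1 of 682 (0.147%) in vehicle. The groups then overlapped in this draw, with TAK-981 replicate 1 below vehicle replicate 1, and the exact two-sided permutation test gave p = 0.667. The median share over the draws was 0.388% in TAK-981 replicate 1 and 0.597% in vehicle replicate 1. Over 10 random thinnings to 1000 UMIs the counts ran from 1 to 5 and from 10 to 17 in TAK-981, and from 5 to 10 and from 0 to 2 in vehicle. At 3000 UMIs they ran from 4 to 7 and from 29 to 38 in TAK-981, and from 5 to 7 and from 1 to 2 in vehicle. For TAK-981 replicate 2 the first draw was the highest at both depths, against medians of 32 at 3000 UMIs and 14 at 1000 UMIs. For TAK-981 replicate 1 it was the lowest at 1000 UMIs, against a median of 2. At matched depth TAK-981 replicate 2 stood above the other tumours, while the higher share of TAK-981 replicate 1 at full depth was not held at 1000 UMIs.

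**Figure D1:**
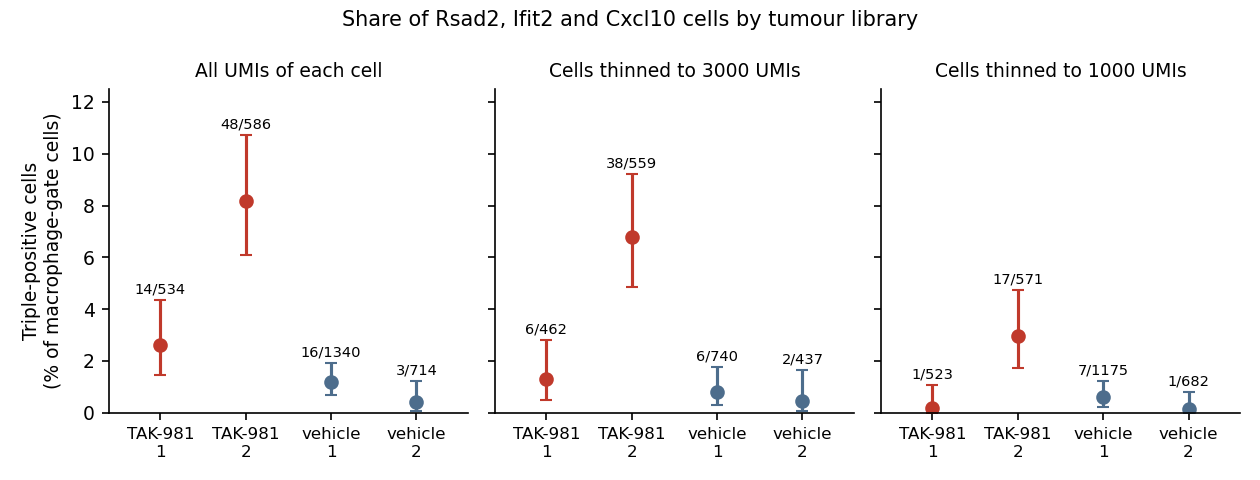
Triple-positive cells as a percentage of macrophage-gate cells in each tumour library, with all UMIs and after thinning to 3000 and 1000 UMIs. Bars are exact 95% binomial intervals and labels give cells over gated cells. Thinned panels show the first of 10 random thinnings. TAK-981 replicate 2 is highest in each panel (8.19%, 6.80% and 2.98%), and the other libraries approach each other as depth is equalised.

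The values of the defining genes chose these cells and are given as description, with no test. Rsad2 had a median of 14 UMIs per triple-positive cell (1 to 67) in TAK-981 replicate 1 and 18.5 (1 to 75) in TAK-981 replicate 2, against 3.5 (1 to 43) in vehicle replicate 1 and 2 (1 to 5) in vehicle replicate 2. Ifit2 had medians of 4 (1 to 20) and 6 (1 to 42) in TAK-981, against 2 (1 to 10) and 1 (1 to 2) in vehicle. Cxcl10 had medians of 5 (1 to 98) and 15.5 (1 to 118) in TAK-981, against 7 (1 to 38) and 22 (10 to 27) in vehicle. Per 10000 UMIs of the cell the order changed, since cells of the vehicle libraries were shallower. Rsad2 then had medians of 14.4 and 19.7 in TAK-981 and 16.4 and 5.75 in vehicle, and Cxcl10 had medians of 9.58 and 17.8 in TAK-981 and 33.5 and 72.8 in vehicle. At least 1 of the genes rested on a single UMI in 6 and 12 cells in TAK-981 and in 8 and 3 cells in vehicle.

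**Figure D2:**
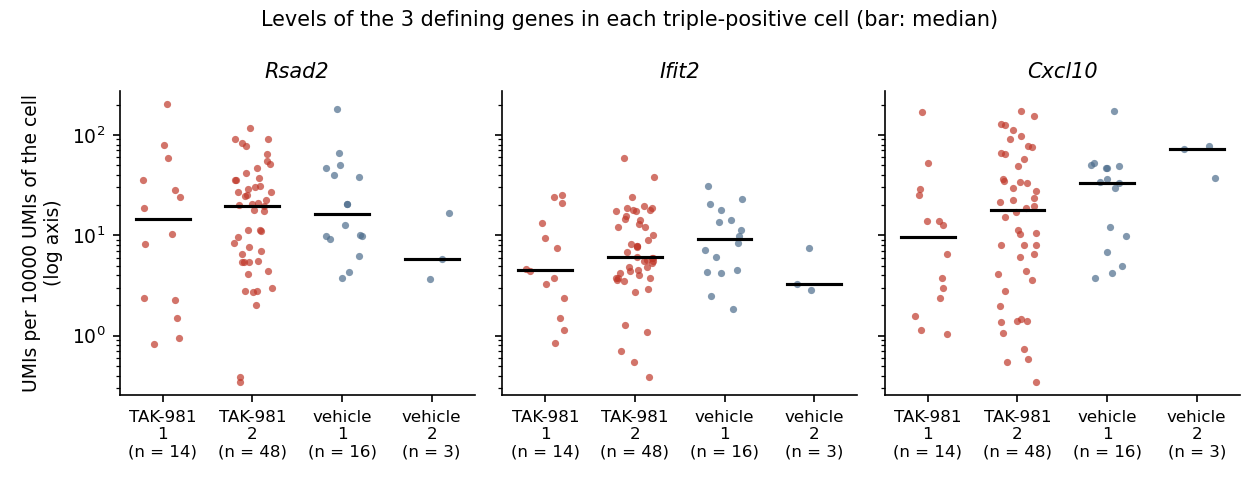
UMIs of Rsad2, Ifit2 and Cxcl10 per 10000 UMIs in each triple-positive cell (points, log axis) by library, with the library median as a bar. The ranges of all 4 libraries overlap for Rsad2 and Ifit2, and the 3 cells of vehicle replicate 2 lie between 37.1 and 77.7 for Cxcl10.

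The share of these transcripts held by triple-positive cells, which were chosen on them, differed between the genes. Triple-positive cells carried 70.4% and 73.7% of all Rsad2 UMIs of the macrophage gate in TAK-981, and 57.1% and 36.4% in vehicle. They carried 70.5% and 76.5% of the Ifit2 UMIs in TAK-981, and 63.6% and 50% in vehicle. Cxcl10 was more widely spread, with 30.7% and 76.2% of its UMIs in triple-positive cells in TAK-981, and 24.9% and 40.7% in vehicle. Among other macrophages, 16.2% and 14.5% had a Cxcl10 UMI in TAK-981 and 10.4% and 4.22% in vehicle. Keratin cells, with more than 2 keratin UMIs, are not macrophages, and 17.1% and 10.3% of them had a Cxcl10 UMI in TAK-981 and 5.53% and 1.93% in vehicle, at medians of 20176 and 23258 UMIs in TAK-981 and 15796 and 10378 in vehicle. For Rsad2 the shares were 7.5% and 17.1% of other macrophages in TAK-981 and 3.93% and 1.13% in vehicle, against 4.81% and 4.11% of keratin cells in TAK-981 and 0.860% and 0.338% in vehicle. The share of Cxcl10 in other macrophages of TAK-981 replicate 1 was therefore not above that in keratin cells.

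Cells just outside the rule had lower levels of other interferon targets. The measure used was the share of a cell's UMIs from 55 other type I interferon target genes, which is close to what the rule chose and so carries no test. In gated cells with all 3 defining genes its median was 3.21% and 3.07% in TAK-981 and 2.21% and 1.45% in vehicle. In cells with only 2 of the 3 genes it was 0.941% (20 cells) and 1.05% (55 cells) in TAK-981, and 0.955% (19 cells) and 1.00% (1 cell) in vehicle. With none of the genes it was 0.253% and 0.257% in TAK-981 and 0.274% and 0.150% in vehicle. The 81 cells themselves ranged from 0.232% to 7.21%, so a few passed the rule at the level of cells with none of the genes.

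**Figure D3:**
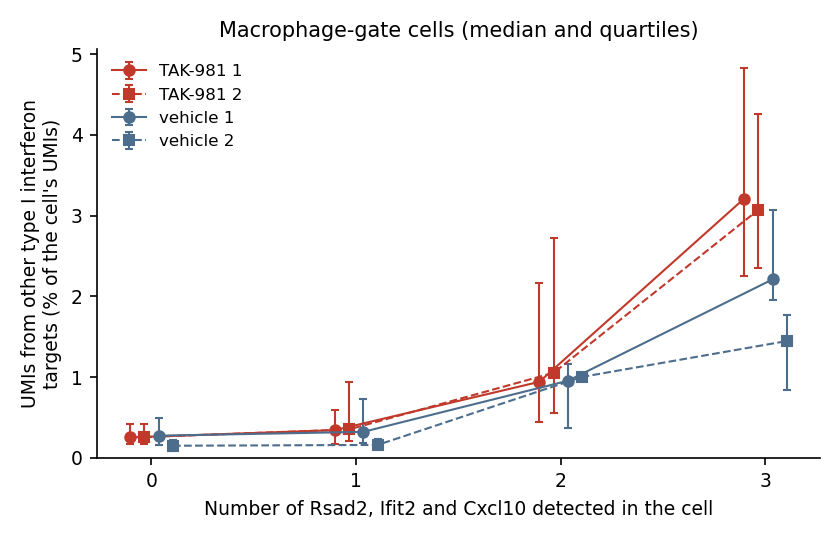
Share of each gated cell's UMIs from 55 other type I interferon targets (median, bars from the lower to the upper quartile) by the number of defining genes detected, for each library. Medians lie at 0.150% to 0.274% with none detected and at 1.45% to 3.21% with all 3 detected.

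The label of macrophage was checked against markers of the cell types a tumour holds. At least 3 of 9 macrophage markers were detected in 14 of 14 and 46 of 48 triple-positive cells in TAK-981, and in 14 of 16 and 2 of 3 in vehicle. The summed macrophage markers reached 132 and 76.4 UMIs per 10000 in TAK-981 and 79.8 and 20.7 in vehicle, against 134 and 113 in other macrophages of TAK-981 and 66.5 and 109 in those of vehicle. The 6 monocyte markers summed to 91.1 and 70.1 in triple-positive cells of TAK-981 and 42.2 and 22.8 in those of vehicle, against 9.48 to 13.9 in other macrophages of the 4 libraries. Since 4 of the 9 macrophage markers (Csf1r, C1qa, C1qb and C1qc) and 1 of the 6 monocyte markers (Ccr2) could admit a cell to the gate, these counts and sums are a description and no independent check of the label. Of the markers that the gate did not use, Cd68, a lysosomal protein of macrophages, had a UMI in 13 of 14 and 41 of 48 triple-positive cells in TAK-981 and in 8 of 16 and 2 of 3 in vehicle, against 83.5% and 86.6% of other macrophages in TAK-981 and 56.0% and 70.0% in vehicle.

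Dendritic, T cell and B cell markers were nearly absent. Flt3, Zbtb46, Xcr1, Clec9a, Cd209a, Siglech, Cd3d, Cd3g, Trac, Cd79a and Ms4a1 had no UMI in any triple-positive cell, which allows a share of up to 3.70% of cells with a UMI for each. The other markers of these lists were found in TAK-981 replicate 2 only. There Nkg7 had 21 UMIs in 1 cell, Klrd1 18 in 3 cells, Ccr7 10 in 1 cell and Cd79b 1 in 1 cell. Its T and NK cell markers summed to 0.776 UMIs per 10000, against 0.139 in its other macrophages. Neutrophil markers were not absent. At least 3 of 5 neutrophil markers were found in 21.4% and 20.8% of triple-positive cells of TAK-981 (3 of 14 and 10 of 48) and in none of vehicle, against 2.69% and 3.72% of other macrophages of TAK-981 and 1.06% and 0.985% of those of vehicle. The 5 markers summed to 2.65 and 17.9 UMIs per 10000 in triple-positive cells of TAK-981 and 0.627 and 0 in those of vehicle, against 1.28 and 2.92 in other macrophages of TAK-981 and 5.94 and 2.31 in those of vehicle. Fibroblast markers reached 9.16 and 9.05 in triple-positive cells of TAK-981 and 0 and 10.9 in those of vehicle. In other macrophages they were at 12.2 and 1.82 in TAK-981 and 1.15 and 0.221 in vehicle. The sums in triple-positive cells came from few cells, 3 of 14 and 6 of 48 in TAK-981 and 1 of 3 in vehicle replicate 2. Without cells with more than 1 neutrophil marker, the difference in share between TAK-981 and vehicle was 3.36 points. Removal of top doublet scores took 2 and 1 triple-positive cells, from TAK-981 replicate 2 and vehicle replicate 2.

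Ly6c2, a surface protein of inflammatory monocytes, was detected in 42.9% and 77.1% of triple-positive cells in TAK-981 and in 50% and 0% in vehicle, against 8.27% and 16.4% of other macrophages in TAK-981 and 9.89% and 1.97% in vehicle. Complement C1q transcripts, typical of mature tissue macrophages, were detected in 78.6% and 79.2% of triple-positive cells in TAK-981 and in 75% and 33.3% in vehicle, against 96.3% and 89.0% of other macrophages in TAK-981 and 76.1% and 90.4% in vehicle. C1q genes could admit a cell to the gate, so its share is a description. Of the 81 cells, 38 had both transcripts, and some of these rested on a single UMI of C1q or of Ly6c2. In TAK-981 replicate 2, for example, a cell had 53 Ly6c2 UMIs and 1 C1q UMI, and another had 1 and 120. Detection of both is thus no measure of both at a high level. The 51 cells with Ly6c2 had a median of 4.72 C1q UMIs per 10000, and the 30 without had 62.7. The other type I targets made up a median of 3.25% of UMIs in cells with Ly6c2 and 2.14% in cells without it, and the ranges overlapped (0.568% to 6.94% and 0.232% to 7.21%). Within libraries the medians were 3.66% with Ly6c2 and 2.58% without in TAK-981 replicate 1, 3.35% and 2.49% in TAK-981 replicate 2, and 3.13% and 1.93% in vehicle replicate 1.

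**Figure D4:**
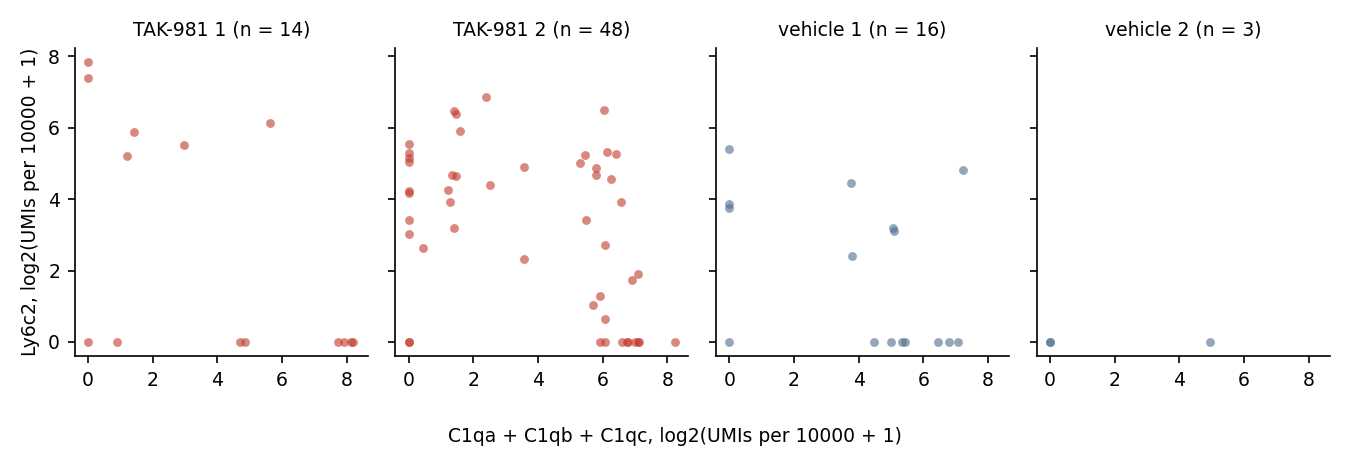
Each point is a triple-positive cell, placed by its summed C1qa, C1qb and C1qc UMIs (horizontal) and its Ly6c2 UMIs (vertical), both as log2 of UMIs per 10000 plus 1. Cells spread from high Ly6c2 with no C1q to high C1q with no Ly6c2 in TAK-981 replicates 1 and 2 and vehicle replicate 1, and none of the 3 cells of vehicle replicate 2 has Ly6c2.

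Genes outside the rule were compared between triple-positive cells and other macrophages of the same tumour. UMIs were summed per library and tested with edgeR's quasi-likelihood test with library as a block, in the 3 libraries with at least 10 triple-positive cells (78 cells). The plan had been to give values only, with no test, if any library held fewer, so this test was chosen after cell numbers were seen. Levels below are CPM, counts scaled to a common library total (TMM), and folds are log2 of triple-positive over other macrophages with standard errors (SE). Of 10395 genes tested, 407 were higher (3.92%) and 258 were lower (2.48%) in triple-positive cells at an adjusted p under 0.05 (6.4% in all), and the median of all tested genes was -0.17. Without TAK-981 replicate 2, the library with 48 of the 78 cells, 138 were higher and 41 lower, and without TAK-981 replicate 1 the counts were 291 and 49. With all 4 libraries, 372 were higher and 169 lower. Vehicle replicate 1 was the only vehicle tumour in this fit.

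Interferon-stimulated genes were higher together. Of 53 tested type I interferon targets, all 53 were higher, with a median log2 fold of 2.95. This list is close to the genes that chose the cells, so its count and the p-values of its genes are a description. Ifit1, an antiviral protein that binds foreign RNA, had 968 and 808 CPM in triple-positive cells of TAK-981 and 810 CPM in those of vehicle replicate 1, against 11.6 and 36.9 CPM in other macrophages of TAK-981 and 8.98 CPM in those of vehicle replicate 1. The log2 fold was 5.65 ± 0.31 (SE), with an adjusted p of 6.22e-72 by edgeR, and it was higher in 3 of 3 libraries. In vehicle replicate 2, outside the fit, the 3 triple-positive cells held 8 Ifit1 UMIs and the 711 other macrophages held 6.

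Isg15 encodes a ubiquitin-like protein that is attached to other proteins, and Usp18 removes it and restrains interferon signalling. Isg15 reached 3202 and 2340 CPM in triple-positive cells of TAK-981 and 2386 CPM in those of vehicle replicate 1, against 121 and 166 CPM in other macrophages of TAK-981 and 117 CPM in those of vehicle replicate 1 (log2 4.27 ± 0.26). Usp18 reached 292, 380 and 447 CPM in triple-positive cells of TAK-981 replicates 1 and 2 and vehicle replicate 1, against 6.92, 22.6 and 8.46 CPM in their other macrophages (log2 4.89 ± 0.31). In neither gene did the groups overlap, and the fold was smallest in TAK-981 replicate 2, where other macrophages had more of both. Cmpk2, a mitochondrial nucleotide kinase whose gene neighbours Rsad2, rose by log2 5.6 ± 0.32, and Ifit3, a partner of Ifit1, rose by 5.44 ± 0.31.

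The other genes with the largest rise were Ifit1bl1 (log2 5.64), Isg20 (4.26), Ifi205 (3.90), Phf11a (3.90), Ifi206 (3.89), Oasl1 (3.78) and Herc6 (3.77). Isg20 encodes an RNA exonuclease, Herc6 a ligase that attaches Isg15 in mice, and Oasl1 an inhibitor of Irf7 translation. Adjusted p by edgeR was at most 1.04e-24 for each of these 12 genes, and all 12 kept the call in every alternative fit. Most of the 12 are on the type I list, which is close to the rule, and every fit used cells chosen by that rule. Their p-values and kept calls are therefore a description and no independent support. Ifit1bl1, Ifit3, Ifi205, Ifi206 and Phf11a have close paralogs in the mouse genome, so their split between copies is uncertain.

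**Figure D5:**
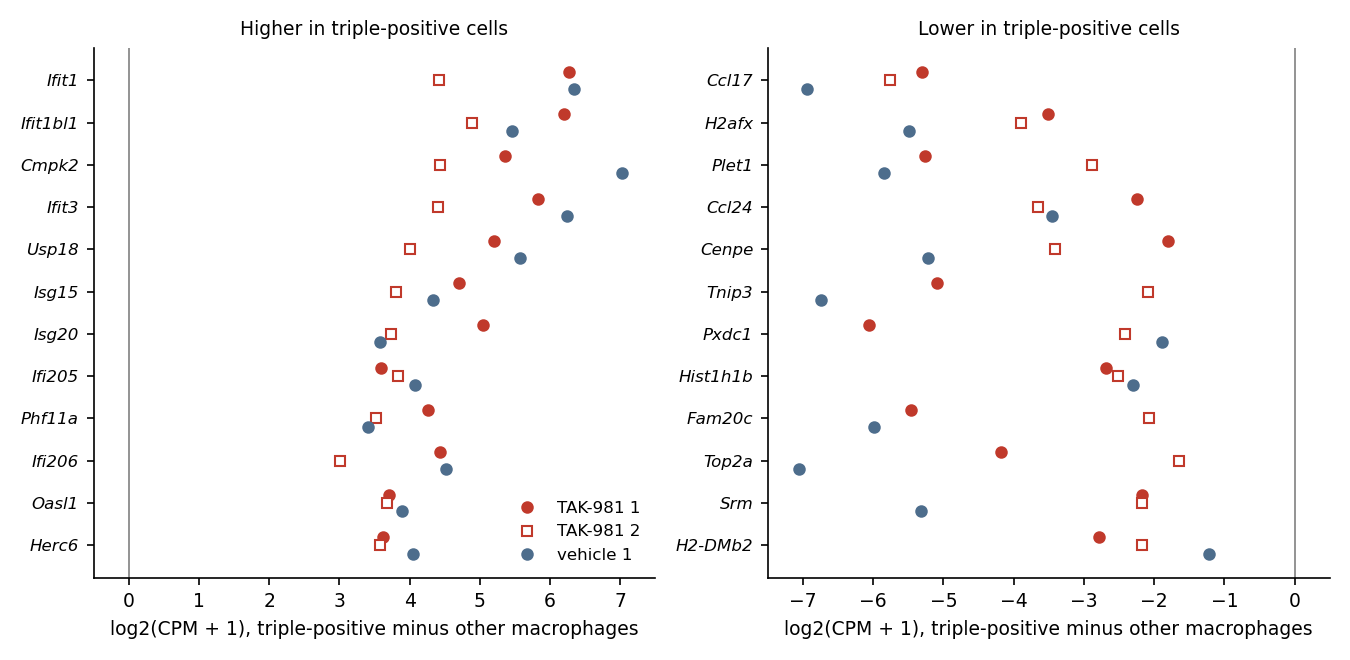
Difference in log2(CPM + 1) between triple-positive cells and other macrophages of the same library for the 12 genes with the largest fitted rise (left) and fall (right) under the naming rule, in TAK-981 replicates 1 and 2 and vehicle replicate 1. All points on the left are above 0 and all on the right are below 0. Several genes on the right rest on 0 to 2 UMIs in a library.

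Among genes induced by interferon gamma, 16 of 22 were higher and 1 lower (median log2 2.29). The guanylate-binding proteins and immunity-related GTPases, which attack the vacuoles of intracellular microbes, made up most of them. Gbp2 had 228, 339 and 384 CPM in triple-positive cells of TAK-981 replicates 1 and 2 and vehicle replicate 1, against 57.6, 40.5 and 26.7 CPM in their other macrophages (log2 2.89 ± 0.29). Acod1, which makes itaconate, rose by log2 3.41 ± 0.31. Ciita, the master activator of MHC class II genes, was the exception and fell by 1.95 on the log2 scale (SE 0.46), with 2, 8 and 1 UMIs in the triple-positive cells. When TAK-981 replicate 2 was left out, 10 of the list were higher and none lower, and Ciita, Irf1, Gbp4, Gbp6, Gbp7, Gbp9 and Irgm2 lost the call. Cxcl9, a chemokine closely related to Cxcl10, did not pass the test. It had 13, 3 and 0 UMIs in triple-positive cells of the fitted libraries, and a log2 fold of -0.97 ± 0.44 (adjusted p = 0.221 by edgeR).

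Signalling genes and nucleic acid sensors changed in part. Of 19 interferon receptor, JAK, STAT and IRF genes, 6 were higher and none lower. Among them were Irf7 (log2 3.13), Socs1 (2.78), Irf1 (1.53) and Irf9 (1.19). Irf7, which amplifies type I interferon production, had 1523 and 1372 CPM in triple-positive cells of TAK-981 and 660 CPM in those of vehicle replicate 1, against 126 and 209 CPM in other macrophages of TAK-981 and 75.6 CPM in those of vehicle replicate 1. Of 18 sensors, 7 were higher and none lower. Among them were Ifih1 (MDA5, log2 3.13), Ddx58 (RIG-I, 2.68) and Zbp1 (2.55), which detect viral or abnormal nucleic acids. Irf7 and the sensors Ifih1, Ddx58, Zbp1, Dhx58 and Samhd1 are also on the type I list, which is close to the rule. Their calls are therefore a description and no separate result. The signalling and sensor lists each had 4 genes higher without TAK-981 replicate 2. No interferon gene passed the filter on low counts. Ifnb1 had 1 and 1 UMIs in triple-positive cells of TAK-981 and 0 and 1 in those of vehicle, against 0 and 1 in other macrophages of TAK-981 and 4 and 0 in those of vehicle.

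Chemokines went in both directions, with 6 of 19 higher and 5 lower. Ccl5, which recruits T cells, had 313 and 117 CPM in triple-positive cells of TAK-981 and 1087 CPM in those of vehicle replicate 1, against 22.2 and 37.8 CPM in other macrophages of TAK-981 and 61.8 CPM in those of vehicle replicate 1 (log2 3.15 ± 0.29). Its 51 and 16 UMIs in the vehicle libraries were summed over 16 and 3 cells. The monocyte chemoattractants rose less, with Ccl12 at log2 1.30, Ccl4 at 1.29, Ccl2 at 1.22, Ccl7 at 1.19 and Ccl3 at 0.77. Without TAK-981 replicate 2, 3 chemokines were higher, and Ccl3, Ccl7 and Ccl2 lost the call (for Ccl2, adjusted p = 0.0608 by edgeR). With all 4 libraries 2 chemokines were higher and 3 lower, and Ccl2, Ccl3, Ccl7 and Ccl12 lost the call.

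Ccl17 and Ccl24, both known from type 2 immune responses, were among the chemokines that fell. Ccl17, a ligand of Ccr4, had no UMI in any triple-positive cell, against 38.5 and 53.4 CPM in other macrophages of TAK-981 and 122 and 22.2 CPM in those of vehicle. Taken against a floor of 3 counts over the 78 fitted cells, it was at least 13.6-fold lower. Ccl24, an eosinophil chemoattractant, had 42.7 and 78.1 CPM in triple-positive cells of TAK-981 and 128 CPM in those of vehicle replicate 1, against 206 and 992 CPM in other macrophages of TAK-981 and 1414 CPM in those of vehicle replicate 1 (log2 -3.34 ± 0.33). In vehicle replicate 2, outside the fit, it went the other way, with 3 UMIs in the 3 triple-positive cells (181 CPM), against 38.2 CPM in other macrophages. Cxcl16 (log2 -1.08), Ccl6 (-1.06) and Ccl8 (-1.04) fell less, and Ccl8 did not keep its direction among cells with a Ccr2 UMI (0.52).

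Cytokines and checkpoint ligands gave smaller counts. Of 21 cytokine and NF-kB target genes, 6 were higher, namely Tnfsf10 (log2 3.82), Il27 (2.91), Il15 (2.85), Cd40 (1.70), Il18 (1.59) and Il6 (1.32), and 2 were lower, namely Il1a (-0.98) and Ptgs2 (-0.94). The counts were 4 higher and none lower without TAK-981 replicate 1, and 2 and none without TAK-981 replicate 2, where Cd40 and Il6 were among those that lost the call. Tnfsf10, the death ligand TRAIL, and Il27 rested on 6, 15 and 0 UMIs and on 0, 8 and 1 UMIs in the fitted libraries. Il15, which sustains NK and CD8 T cells, had 8, 34 and 4 UMIs. Of 11 checkpoint ligands, Lgals9 (log2 1.69 ± 0.27) and Cd274, which encodes PD-L1 (1.06 ± 0.31), were higher. Cd274 lost the call without TAK-981 replicate 2 (adjusted p = 0.590 by edgeR). Of 18 cell death genes, 6 were higher, led by Casp4 (2.04), Mlkl (1.87) and Casp1 (1.69), and none of the list passed without TAK-981 replicate 2.

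Antigen presentation split by class. Of 21 MHC class I genes, 16 were higher and none lower (median log2 1.01). H2-T22, a nonclassical class I gene, had 662 and 551 CPM in triple-positive cells of TAK-981 and 170 CPM in those of vehicle replicate 1, against 103 and 115 CPM in other macrophages of TAK-981 and 39.6 CPM in those of vehicle replicate 1 (log2 2.41 ± 0.29). The immunoproteasome subunits Psmb8 (1.01), Psmb9 (1.38) and Psmb10 (1.24) and the peptide transporter Tap1 (1.33) were among the rest. H2-K1 rose by log2 0.86 in the fit but had 1001 CPM in triple-positive cells and 1044 CPM in other macrophages of vehicle replicate 1. Without TAK-981 replicate 2, 3 of 21 passed, and with all 4 libraries 9 of 21 passed. Reads of H2 genes can be split between close copies, so single members are uncertain.

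MHC class II genes, by which macrophages show peptides to CD4 T cells, went the other way, with 8 of 11 lower and none higher (median log2 -1.15). Cd74, the invariant chain, had 3302 and 2976 CPM in triple-positive cells of TAK-981 and 7010 CPM in those of vehicle replicate 1, against 8641 and 7355 CPM in other macrophages of TAK-981 and 9928 CPM in those of vehicle replicate 1 (log2 -1.09 ± 0.23, adjusted p = 6.92e-05 by edgeR). H2-Aa (-1.06), H2-Ab1 (-1.15) and H2-Eb1 (-1.24) fell alike. The fall was present in 3 of 3 libraries for each of these genes and was smallest in vehicle replicate 1. A single member of the list passed without TAK-981 replicate 1, and a single member without TAK-981 replicate 2. Neither fit has more than 2 libraries. With all 4 libraries, 2 of 10 passed.

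Of 15 monocyte genes, 9 were higher and none lower (median log2 1.12). Ly6c2 had 3487 and 1730 CPM in triple-positive cells of TAK-981 and 639 CPM in those of vehicle replicate 1, against 78.1 and 254 CPM in other macrophages of TAK-981 and 91.7 CPM in those of vehicle replicate 1 (log2 3.68 ± 0.28, adjusted p = 2.05e-36 by edgeR). It had no UMI in the 3 cells of vehicle replicate 2. Plac8, a small protein abundant in monocytes, had 3899, 3922 and 2706 CPM in triple-positive cells of TAK-981 replicates 1 and 2 and vehicle replicate 1, against 356, 645 and 641 CPM in their other macrophages (log2 2.70 ± 0.25). Some monocyte genes, Ly6c2 and Plac8 among them, are themselves known to respond to interferon. By DESeq2 or with all 4 libraries, 5 monocyte genes were higher, and with no filter on low counts 10 were higher and 3 lower. Without TAK-981 replicate 2, 3 monocyte genes passed, and Vcan changed direction (-0.054).

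Among 19 tissue macrophage genes, 6 were lower, namely Cd163 (log2 -2.25), Cx3cr1 (-1.22), Mrc1 (-1.16), Trem2 (-1.01), Selenop (-0.76) and Apoe (-0.73). The scavenger receptors Cd163 and Mrc1 and the lipid receptor Trem2 mark resident or lipid-laden macrophages. The immunoglobulin receptors Fcgr1 (1.91) and Fcgr4 (1.49), which interferons are known to induce, and Folr2 (0.90) were higher. A single gene was lower by DESeq2, none was lower without TAK-981 replicate 1, and a single gene was lower and 2 were higher without TAK-981 replicate 2. Restricting both sides to cells with a Ccr2 UMI left 386 genes higher and 298 lower, with 3 tissue macrophage genes in each direction, 7 monocyte genes higher and 3 monocyte genes lower.

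Several proliferation and stress genes were lower. Of 20 cell cycle genes, 10 were lower and none higher (median log2 -1.45), and 4 were lower by DESeq2 and without TAK-981 replicate 1 or 2. Top2a, which untangles replicated DNA, had 7.12, 24.7 and 0 CPM in triple-positive cells of TAK-981 replicates 1 and 2 and vehicle replicate 1, against 146, 79.7 and 132 CPM in their other macrophages (log2 -2.44 ± 0.42). Mki67 was detected in 1 of 14 and 4 of 48 triple-positive cells in TAK-981 and in 2 of 16 and 0 of 3 in vehicle. In other macrophages it was detected in 25.8% and 18.4% in TAK-981 and 10.4% and 12% in vehicle. The share in triple-positive cells was lower in both TAK-981 tumours and not in vehicle replicate 1, and the difference between the groups was not tested. Of 12 heat shock genes, 7 were lower (median log2 -0.88), led by Hspa1b (-2.01) and Hspa1a (-1.87). There were 3 heat shock genes lower with all 4 libraries, and none passed without TAK-981 replicate 2. Mitochondrial shares moved with these lists. Their medians were 4.01% and 3.23% in triple-positive cells of TAK-981 and 1.68% and 2.00% in those of vehicle, against 7.06% and 5.67% in other macrophages of TAK-981 and 2.78% and 2.68% in those of vehicle. The part of RNA quality in these lists was not tested.

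The remaining genes with the largest fall under the naming rule were H2afx (log2 -4.12), Plet1 (-3.67), Cenpe (-2.95), Tnip3 (-2.76), Pxdc1 (-2.64), Hist1h1b (-2.60), Fam20c (-2.53), Srm (-2.30) and H2-DMb2 (-2.30). H2afx and Hist1h1b encode histones, Cenpe a kinetochore motor, and Srm spermidine synthase. In the fitted triple-positive cells these genes had 1 to 11 UMIs in any library that had one. Without TAK-981 replicate 2, 7 of the 12 genes that fell most lost the call, and Ccl17, H2afx, Ccl24, Tnip3 and Top2a kept it.

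Few metabolic and SUMO genes passed the test. Of 19 arginine, glycolysis and hypoxia genes, 3 were lower, namely Hilpda (log2 -1.47), Arg1 (-1.16) and Mif (-0.81). Among cells with a Ccr2 UMI, and also among cells with at most 1 neutrophil marker, 11 were lower. By DESeq2, and also with all 4 libraries, 2 were lower. A single gene was lower without TAK-981 replicate 2, and none with no library block. Arg1 lost the call without TAK-981 replicate 1, without TAK-981 replicate 2 and with no library block. Mif lost it in these 3 fits, by DESeq2, against depth-matched cells and with all 4 libraries. Arg1, which depletes arginine and marks suppressive macrophages, had 406 and 895 CPM in triple-positive cells of TAK-981 and 2045 CPM in those of vehicle replicate 1, against 1077 and 2479 CPM in other macrophages of TAK-981 and 2882 CPM in those of vehicle replicate 1. Of 20 genes of the SUMO pathway, the target of the drug, Pml (2.32) and Sp100 (2.21) were higher. Both are nuclear body genes known to be induced by interferon, and Sp100 is also on the type I list. Of 19 lipid and scavenging genes, 3 were higher and 1 lower.

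Markers of other cells moved with the comparison, but not alike between the TAK-981 libraries. Endothelial markers summed to 1.85 UMIs per 10000 in triple-positive cells of TAK-981 replicate 2, against 0.343 in its other macrophages. They were at 0.227 against 0.390 in TAK-981 replicate 1 and at 0.627 against 0.278 in vehicle replicate 1. The fibroblast sums given above were likewise higher in TAK-981 replicate 2 and lower in TAK-981 replicate 1. Of 12 neutrophil markers, 5 were higher, namely Stfa2l1 (log2 2.81), Hdc (2.57), G0s2 (1.54), Clec4d (1.10) and S100a9 (1.01). S100a9 had 481 UMIs in triple-positive cells of TAK-981 replicate 2 and 16, 1 and 0 in the other libraries. Of 7 endothelial markers, 4 were higher (Emcn, Egfl7, Kdr and Plvap), and of 9 fibroblast markers 2 were higher (Dcn and Sparc). Of 10 acinar markers, 3 were lower (Reg1, Ctrb1 and Prss2). None of the neutrophil, endothelial, fibroblast or acinar markers passed without TAK-981 replicate 2, and no endothelial marker passed by DESeq2. Of 8 dendritic markers 1 was higher, namely Bst2, which is also on the type I list. Of 3 T and NK cell markers 1 was lower, and of 2 B cell and 4 epithelial markers none passed. Of 17 immediate early genes 1 was lower. With at most 1 neutrophil marker per cell, 52 of 53 type I targets, 10 of 15 monocyte genes, 18 of 21 class I genes and 8 of 11 class II genes passed in the directions given above, and 3 other monocyte genes were lower.

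Whether triple-positive cells of TAK-981 tumours differ from those of vehicle tumours was not fitted, since vehicle replicate 2 held 3 such cells. Side by side, Isg15 had 3202 and 2340 CPM in TAK-981 and 2386 CPM in vehicle replicate 1, Ly6c2 had 3487 and 1730 CPM in TAK-981 and 639 CPM in vehicle replicate 1, and Cd74 had 3302 and 2976 CPM in TAK-981 and 7010 CPM in vehicle replicate 1. Of these, Isg15 in vehicle lay between the TAK-981 tumours, while Ly6c2 was lower and Cd74 higher in vehicle. In other macrophages, TAK-981 against vehicle gave 0 of 10913 genes at an adjusted p under 0.05 by edgeR (0.0%), 1570 at an unadjusted p under 0.05, and 298 by DESeq2. The type I targets there had a median log2 fold of 0.79, against 0.01 for all genes tested, and none of 52 passed. Rsad2 in the whole gate had 75.8 and 288 CPM of all UMIs there in TAK-981 and 54.8 and 8.52 in vehicle. Such a sum does not tell more positive cells from more RNA per cell.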

How the data were processed

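Per the labels' protocols, tumours were dissociated, red cells were lysed, dead cells were removed where viability was low, and 10x 3' v3.1 libraries were made. Deposited were UMI counts per gene and barcode. The submitters' processing notes name Cell Ranger 6.1.2 and the mm10 build, and other upstream steps are not given in the sources used here. No deposited count column was left unused (0 columns). All values come from these counts, with no further alignment. Replicate libraries of 1 group differed far beyond sampling noise (chi-square per degree of freedom 127 for TAK-981 and 189 for vehicle).

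Cells were chosen by the gate given above. The cells and the 27 gene lists were chosen with earlier results of these data known. UMIs were summed per library and cell class, scaled by TMM, filtered for low counts and tested with edgeR 4.0.16 (R 4.3.3) with Benjamini-Hochberg adjustment at 0.05 over all genes tested. Genes of the rule were left out of tests and counts. The plan required at least 10 triple-positive cells in every library and otherwise values with no test. Vehicle replicate 2 held 3, and the test on the other 3 libraries is a departure from that plan, made after cell numbers were seen. Each library is 1 mouse, and with library as a block the test concerns the difference between cell classes within a tumour. Its p-values draw on variance estimates shared across genes, so they do not measure the spread between these tumours alone.

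Named genes had an adjusted p under 0.05, a mean log2 CPM of at least 5 and 1 direction in the fitted libraries. The plan had asked for 1 direction in all 4 libraries, so this too is a departure. Ccl24, which went the other way in vehicle replicate 2, would not have met the planned rule. The 12 largest folds each way and up to 4 members of each list by level were named, and further list members are named to show which passed. Alternatives were DESeq2 1.42.0, no filter on low counts, at most 10% mitochondrial UMIs, removal of top Scrublet scores (scanpy 1.11.5, 0.8% per 1000 cells), depth-matched other macrophages (5 per cell), other cell sets and leaving out each library. Chosen after seeing the data were the fit of 4 libraries, the Ccr2 and neutrophil marker limits and the fit with no library block. Doublets were otherwise kept. Intervals are at 95%. On simulated counts the fit of triple-positive cells recovered 91 of 100 genes changed by 2 on the log2 scale and 34 of 100 changed by 1. The changed genes were drawn only from those with higher counts, so recovery of genes with few UMIs was not measured.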

Additional observations from a re-analysis of the deposited data

Results flagged for a closer look

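Cells with Rsad2, Ifit2 and Cxcl10 outside the macrophage gate were a signal that the comparisons above do not use. They numbered 9 of 870 cells outside the gate (1.03%) and 21 of 2246 (0.935%) in the TAK-981 tumours, and 3 of 1716 (0.175%) and 0 of 2529 in the vehicle tumours. Both TAK-981 values lay above both vehicle values. Of these cells, 8 and 18 in TAK-981 and 1 and 0 in vehicle had more than 2 keratin UMIs. Keratin cells were also deeper in TAK-981, with medians of 20176 and 23258 UMIs, against 15796 and 10378 in vehicle, and the part of depth was not tested.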

How the results depend on the processing

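The difference in share between TAK-981 and vehicle kept its direction in every alternative. It was 1.21 points at 1000 UMIs and 3.41 at 3000 UMIs in the first thinning draw. When each library was left out it ran from 1.81 to 7.38. The number of genes that differed between triple-positive cells and other macrophages was 665 by edgeR, 416 by DESeq2, and 195 with no replicate block, all of which were among the 665. It ranged from 179 to 592 when each fitted library was left out, and was 541 with all 4 libraries and 571 against depth-matched cells. DESeq2 called 293 higher and 123 lower, against 407 and 258 by edgeR, and 409 of its 416 genes were among the 665. Of the 179 genes without TAK-981 replicate 2, 172 were among the 665. TAK-981 against vehicle in other macrophages gave 0 genes by edgeR, 298 by DESeq2, 966 with no filter on low counts, 266 with the replicate block, and 3 to 548 when each library was left out. The labels give no pairing of libraries between the groups. Same-numbered libraries did not deviate together (correlation -0.005 over 10913 genes), but 1 such correlation cannot exclude a shared step of handling. The library block within a tumour is the only pairing used in the main fits.

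Of the 665 genes, 11 changed direction without TAK-981 replicate 2, 15 with at most 1 neutrophil marker, 2 each without TAK-981 replicate 1 and among cells with Ccr2, and 1 by DESeq2. Among named genes, direction changed without TAK-981 replicate 2 for S100a9 (log2 -0.60, up to 2.14 without vehicle replicate 1) and Vcan (-0.054, up to 1.73 without TAK-981 replicate 1), for G0s2 (-0.70), Sparc (-0.99) and Col1a1 (-1.83) with at most 1 neutrophil marker, and for Ccl8 (0.52) among cells with Ccr2. Fabp4 was at -1.07 by DESeq2, -1.69 with at most 1 neutrophil marker and between -9.10 without TAK-981 replicate 2 and 2.63 without TAK-981 replicate 1. Without TAK-981 replicate 2 no triple-positive cell of the fitted libraries had a Fabp4 UMI. The cause of the other changes was not tested. Planned fits of TAK-981 against vehicle within triple-positive cells, of the interaction, and of cells chosen after thinning to 1000 UMIs (1 to 17 cells per library) were not run. Depth limits the number of cells found. In the first draw thinned to 1000 UMIs they numbered 1 and 17 in TAK-981 and 7 and 1 in vehicle. At full depth they numbered 14 and 48 in TAK-981 and 16 and 3 in vehicle.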

Other observations

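Further genes that differed between triple-positive cells and other macrophages were chosen after their values were seen. Complement factor B (Cfb), a part of the alternative complement pathway, had 776 and 670 CPM in triple-positive cells of TAK-981 and 362 CPM in those of vehicle replicate 1, against 125 and 116 CPM in other macrophages of TAK-981 and 73.7 CPM in those of vehicle replicate 1 (log2 2.51 ± 0.28, adjusted p = 2.65e-17 by edgeR). C3, the central complement protein, was higher by log2 1.33 ± 0.29. The surface protein Ly6a was higher by 3.17 ± 0.28, with 2910 and 2608 CPM in triple-positive cells of TAK-981 and 170 CPM in those of vehicle replicate 1. The acute-phase gene Saa3 was higher by 2.29 ± 0.29, and in vehicle replicate 1 it had 170 CPM in triple-positive cells and 171 CPM in other macrophages.

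Genes lower in triple-positive cells included Mmp12, a macrophage elastase (log2 -2.13 ± 0.30), the lectin Mgl2 (-2.21 ± 0.32), the integrin Itgax (-1.61 ± 0.38) and the nucleolar gene Npm1 (-1.23 ± 0.25). Mmp12 had 0 and 407 CPM in triple-positive cells of TAK-981 and 213 CPM in those of vehicle replicate 1, against 258 and 812 CPM in other macrophages of TAK-981 and 1492 CPM in those of vehicle replicate 1. Saa3 and C3 lost the call without TAK-981 replicate 2, Itgax without TAK-981 replicate 1 and Mmp12 by DESeq2.

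Endothelial markers differed among themselves in how many triple-positive cells of TAK-981 replicate 2 had a UMI. Kdr, which encodes a receptor for vascular endothelial growth factor, had a UMI in 18 of 48 triple-positive cells of TAK-981 replicate 2 (37.5%), against 3.72% of its other macrophages, and in 1 of 14 and 1 of 16 triple-positive cells of TAK-981 replicate 1 and vehicle replicate 1. Emcn had 65 UMIs in triple-positive cells of TAK-981 replicate 2 and none in those of the other libraries. Both genes lost the call by DESeq2. Pecam1 had a UMI in 6 of 48 triple-positive cells of TAK-981 replicate 2, against 14.9% of its other macrophages. Cdh5 had a UMI in 1 of 48 triple-positive cells, against 1.12% of its other macrophages. Those cells held 34 Pecam1 UMIs and 12 Cdh5 UMIs. Kdr, Pecam1 and Cdh5 together came to 1.85 UMIs per 10000 in the triple-positive cells, against 0.343 in other macrophages of TAK-981 replicate 2. The contrast between these markers is thus one of detection, not of summed level.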
